A study of Homo sapiens with 118 samples.

Results

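The first step of a concentration series was examined in HepaRG cells, an established human hepatic cell line used here in its differentiated form. All libraries at the second concentration (C2) of 7 histone deacetylase inhibitors were set against all libraries at the lowest (C1). This gave 21 against 21 libraries, 42 of the 118 in the series, and they were chosen by their labels alone. The chemicals were apicidin, mocetinostat, panobinostat, scriptaid, tacedinaline, valproic acid and vorinostat. Each concentration of a chemical had 3 libraries, numbered 1, 2 and 3, and the labels give each number as a separate batch of HepaRG cells. A C2 library and the C1 library of the same chemical and batch are called a pair, and there were 21 pairs. The comparison asks which transcripts respond at the first increase in concentration.

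Exposure lasted 72 hours with fresh chemical each day, and lysates were profiled by TempO-Seq, in which paired probes are ligated on their target RNA, amplified and counted. The concentration rose 3-fold from C1 to C2 in each of the 7 chemicals. It went from 0.041722 to 0.125167 µM for apicidin, from 0.177222 to 0.531667 µM for mocetinostat and from 0.001468 to 0.004403 µM for panobinostat. The corresponding values were 4.94 and 14.82 µM for scriptaid, 1.143333 and 3.43 µM for tacedinaline, and 0.404778 and 1.214333 µM for vorinostat. For valproic acid the dose labels read 100.478 and 301.433, while the treatment protocol has smaller numbers, so its unit is unsettled, and the ratio does not depend on it. Plate H carried apicidin, mocetinostat, panobinostat and valproic acid, and plate E carried the other 3 chemicals. Solvent controls were not used here, and a change that had fully occurred by C1 cannot be seen in this comparison. Well positions were not balanced, since 11 C2 libraries and 1 C1 library lay in an outer column (1 or 12).

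Histone deacetylases remove acetyl groups from lysines of histones and other proteins, and a chromatin region that loses acetyl groups is usually less accessible for transcription. Inhibitors raise acetylation and shift the expression of many genes in both directions. Panobinostat, scriptaid and vorinostat are hydroxamic acids, mocetinostat and tacedinaline are benzamides, apicidin is a cyclic tetrapeptide and valproic acid is a short branched fatty acid. Differentiated HepaRG cultures hold hepatocyte-like and biliary-like cells, and they are used because they keep drug-metabolising enzymes, bile acid synthesis and the secretion of plasma proteins.

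Total counts ranged from 1243102 to 5250260 at C1 and from 2059078 to 4748357 at C2, and the total was larger at C2 in 9 of 21 pairs. Between 10901 and 13323 probes per library had at least 5 counts. Levels are given as CPM, counts per probe scaled to the library total after its adjustment between libraries by TMM. Of the defining markers, 6 hepatocyte genes summed to 32500 to 49000 CPM at C1 and 25700 to 48200 CPM at C2. ALB, with a median of 21300 CPM at C1, was the largest of them. The 5 biliary markers summed to 63.1 to 149 CPM at C1 and 52.7 to 185 CPM at C2, and the 5 mesenchymal markers to 111 to 220 CPM and 90 to 208 CPM. The 6 blood, immune and endothelial markers summed to 26.2 to 118 CPM and 17 to 99.2 CPM, and of these PTPRC, CD3E and VWF had at most 3 counts in every library, as did the biliary marker EPCAM.

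There were 3 libraries that stood apart, all at C2. Their median Spearman correlation with the other 41 libraries was 0.709 (mocetinostat replicate 1), 0.803 (mocetinostat replicate 2) and 0.881 (panobinostat replicate 2), against at least 0.922 for the remaining libraries. Their deviations from the median of plate H resembled each other, with Pearson correlations across probes of 0.73 to 0.897. A C1 library, mocetinostat replicate 3, shared the pattern in part (0.425 to 0.518). Counts over all probes are given with and without the 3 pairs concerned, and counts of gene lists where leaving them out moved the count by more than 1 feature.

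**Figure D1:**
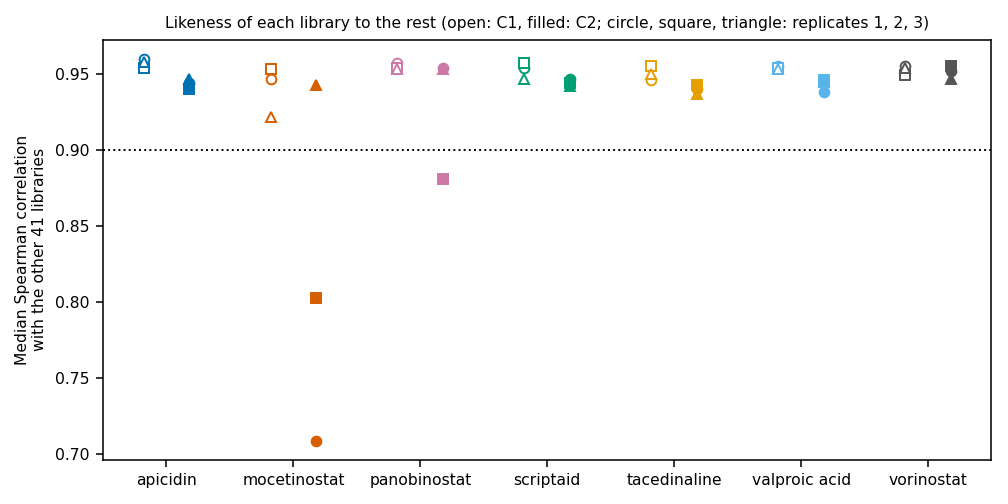
Median Spearman correlation of log2 CPM between each library and the other 41, by chemical, with open symbols for C1, filled symbols for C2 and the shape giving the replicate. The dotted line marks 0.9, and 3 C2 libraries lie below it, at 0.709 and 0.803 (mocetinostat) and 0.881 (panobinostat), while all C1 libraries lie at 0.922 or above.

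At C2, 18 of 43 features of drug and bile acid metabolism and 11 of 27 of secreted plasma proteins were called falling. Over all probes tested the share was 1.77%. Estimates were negative for 33 of the 43 and 24 of the 27, while 0 of 26 features of cholesterol synthesis and uptake were called. These gene lists were chosen with earlier results of these data known. The falling probes included RDH16, a retinol dehydrogenase of liver, CYP7A1, the rate-limiting enzyme of bile acid synthesis, and UGT2A3, a glucuronosyltransferase. The rising set was led in significance by SLC16A12, a monocarboxylate transporter family member that carries creatine, and CNTN1, a cell adhesion protein of neurons. Of 13592 probes tested, 230 rose (1.69%) and 240 fell (1.77%) at an adjusted p under 0.05 in edgeR's quasi-likelihood test. With a fold change of at least 1.5 as well, 51 rose (0.375%) and 61 fell (0.449%). The median log2 change was 0.356 among those that rose, -0.419 among those that fell and -0.00585 over all probes tested.

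Without the 3 pairs, 345 of 14462 probes rose (2.39%) and 385 fell (2.66%), and with a fold change of at least 1.5 these were 55 (0.38%) and 72 (0.498%). Of the 230 and 240 probes called with all pairs, 147 and 205 were also called without the 3 pairs, and none changed sign. With each pair as its own block, 119 rose and 165 fell. In the 9 pairs with neither library in an outer plate column, edgeR called 0 rising and 3 falling probes (ADH1A, an alcohol dehydrogenase, and RDH16 among them), while 296 and 460 probes had an unadjusted p under 0.05 there. The mean pair difference of the 240 falling probes had a median of -0.47 in these 9 pairs and -0.409 in the other 12. For the 230 rising probes it was 0.281 and 0.383, and 229 of them kept their sign in the 9 pairs. These probes were called on all pairs, so their signs and medians in a part of the pairs are a description. Mocetinostat replicate 1, whose C2 library stood apart, was 1 of these 9 pairs. Without it the medians there were 0.204 for the rising and -0.407 for the falling probes. Scriptaid gave 3 of the 9 pairs and tacedinaline and vorinostat 0, so plate position was not evenly spread over chemicals and its part in the counts was not tested.

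Over all probes tested, 155 (1.14%) were higher and 166 (1.22%) lower at C2 in at least 18 of 21 pairs. The probes described next were called, had a mean of at least 5 CPM and had the called sign in at least 18 of 21 pairs, which held for 105 genes that rose and 121 that fell. For each direction the 12 with the largest change and then the 3 with the smallest p were taken. All 30 were called without the 3 pairs as well (largest adjusted p = 0.0332). The signs by pair were part of this choice, so they are given below as a description. C1 and C2 levels overlapped for each of the 30 when chemicals were pooled.

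**Figure D2:**
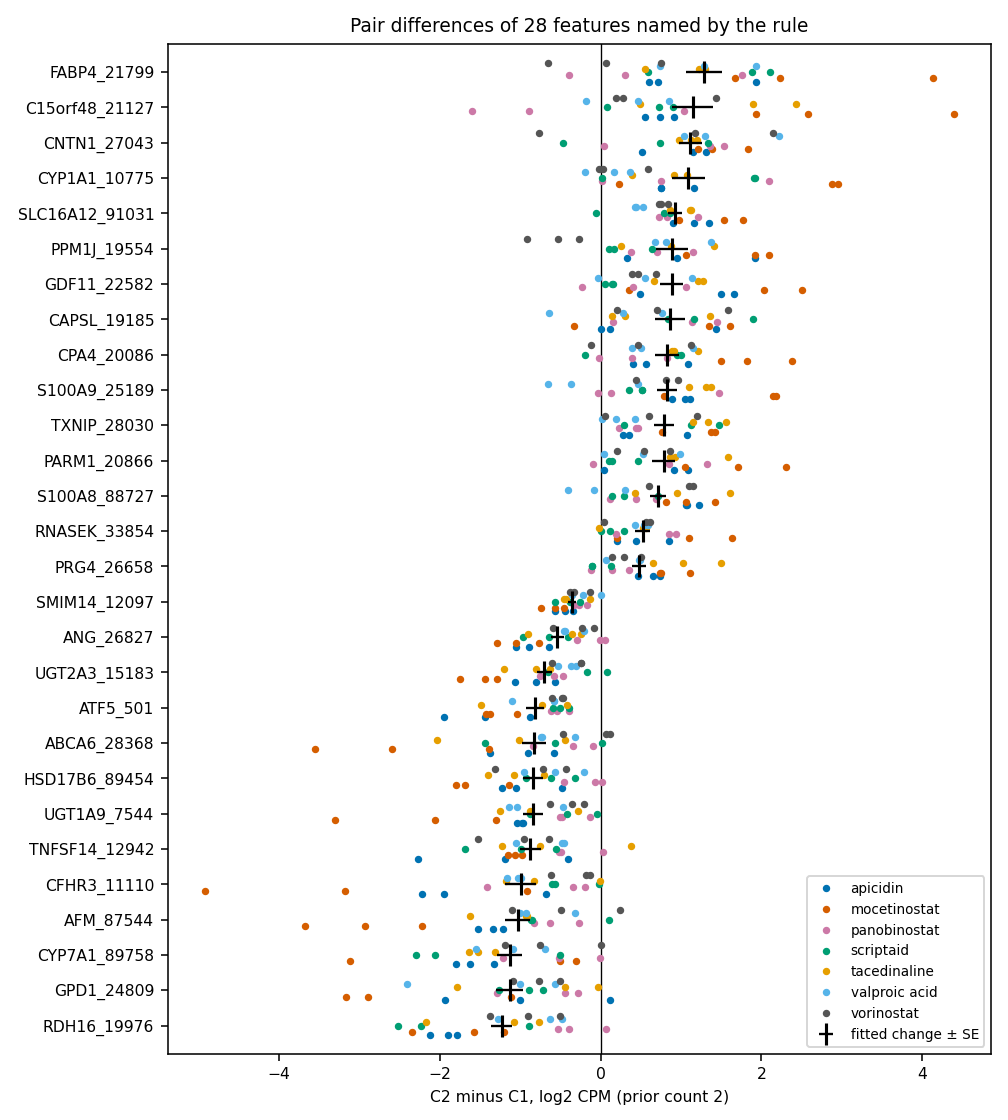
Difference between C2 and C1 (log2 CPM with a prior count of 2) for each of 21 pairs, coloured by chemical, for 28 of the 30 probes chosen by the rule. Black marks give the fitted change with its standard error, from 1.29 for FABP4 to -1.23 for RDH16.

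RDH16 (probe RDH16_19976) ranged from 87.7 to 206 CPM at C1 (median 150.0) and from 25.04 to 164 CPM at C2 (median 55.7). The C2 libraries lay below the C1 libraries in 6 of the 7 chemicals, with overlap in panobinostat. It fell 2.35-fold, a log2 change of -1.23 ± 0.13 (SE, 21 against 21 libraries, adjusted p = 1.14e-07). HSD17B6, a hydroxysteroid dehydrogenase, had 15.5 to 46.2 CPM at C1 (median 29.0) and 6.76 to 30.0 CPM at C2 (median 17.1). It was lower at C2 in 20 pairs, and the change was -0.84 ± 0.13 (adjusted p = 5.7e-05).

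CYP7A1 had 32.3 to 115 CPM at C1 (median 68.4) and 9.21 to 114 CPM at C2 (median 27.0). The groups were separate in 4 chemicals, and the highest C2 value was that of panobinostat replicate 2, a library that stood apart. The log2 change was -1.13 ± 0.15 (adjusted p = 8.56e-06), and -1.33 without the 3 pairs.

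The glucuronosyltransferases UGT1A9 and UGT2A3, which make drugs and steroids more soluble, both fell. UGT1A9 had 31.8 to 92.6 CPM at C1 (median 54.3) and 6.11 to 57.3 CPM at C2 (median 33.6), and it changed by -0.84 ± 0.13 (adjusted p = 4.97e-05). Members of the UGT1A family share exons, so the probe may read more than 1 of them. UGT2A3 had 46.8 to 117 CPM at C1 (median 86.9) and 34.3 to 72.9 CPM at C2 (median 51.3), with a change of -0.70 ± 0.09 (adjusted p = 3.68e-06) and separate groups in 6 chemicals. ABCA6, an ABC family transporter, changed by -0.83 ± 0.15 (adjusted p = 0.000415).

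Among secreted products, AFM, the vitamin E-binding plasma protein afamin, had 50.5 to 102 CPM at C1 (median 66.0) and 3.66 to 79.3 CPM at C2 (median 34.1). Its change was -1.03 ± 0.16 (adjusted p = 4.7e-05), with estimates by chemical from -2.85 (mocetinostat) to -0.45 (vorinostat). CFHR3, a complement factor H-related protein with close family members, had 37.0 to 143 CPM at C1 (median 83.9) and 3.99 to 125 CPM at C2 (median 38.7). It was lower at C2 in all 21 pairs and changed by -0.99 ± 0.20 (adjusted p = 0.00166), and by -0.74 without the 3 pairs. Its estimates by chemical ran from -2.79 (mocetinostat) to -0.32 (vorinostat), and the groups were separate in 3 chemicals. The pair differences were as small as -0.004 (tacedinaline replicate 2) and -0.015 (scriptaid replicate 2). ANG, the secreted ribonuclease angiogenin, changed by -0.54 ± 0.08 (adjusted p = 2.88e-05). Apart from these products, TNFSF14, a membrane ligand of the tumour necrosis factor family, changed by -0.87 ± 0.13 (adjusted p = 2.98e-05).

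GPD1, which links glycolysis to glycerol lipid synthesis, had 7.46 to 51.8 CPM at C1 (median 17.1) and 3.597 to 18.3 CPM at C2 (median 7.66), with a change of -1.13 ± 0.16 (adjusted p = 2.56e-05). ATF5, a basic leucine zipper transcription factor, was the only probe of 13592 (0.00736%) whose C2 libraries lay below its C1 libraries in all 7 chemicals. It had 11.6 to 28.4 CPM at C1 (median 19.9) and 2.81 to 19.8 CPM at C2 (median 13.0), with a change of -0.82 ± 0.11 (adjusted p = 1.21e-05). The estimates ran from -1.36 in apicidin to -0.52 in panobinostat. SMIM14, a small membrane protein, moved less (-0.36 ± 0.04, adjusted p = 1.95e-06) and was separate in 6 chemicals. Over all probes, 71 lay above (0.522%) and 80 below (0.589%) without overlap in at least 4 chemicals. Probes separate in at least 6 chemicals were 2 above (0.0147%) and 6 below (0.0441%). Those outside the rule were TRIM22 (-0.55), MDFIC (-0.39, adjusted p = 0.0568) and ELOC (0.26), named after their values were seen.

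Of the rising probes, SLC16A12 had 11.4 to 43.5 CPM at C1 (median 25.1) and 19.1 to 100.5 CPM at C2 (median 44.9). C2 was higher in 20 of 21 pairs and separate from C1 in 6 chemicals, with overlap in scriptaid. The log2 change was 0.93 ± 0.09 (adjusted p = 4.76e-09), and 0.84 without the 3 pairs. TXNIP, the inhibitor of thioredoxin and a known target of deacetylase inhibitors, had 5.84 to 41.9 CPM at C1 (median 12.4) and 8.91 to 109 CPM at C2 (median 22.4). It was the only probe higher at C2 in all 21 pairs (0.00736%) and changed by 0.79 ± 0.12 (adjusted p = 5.81e-05). Against it stood 7 probes (0.0515%) lower in all 21 pairs, among them ATF5, UGT1A9 and CFHR3, and outside the rule CYP2E1 (-0.72), SERPIND1 (-0.79) and SLC47A1 (-0.41), named after their values were seen.

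**Figure D3:**
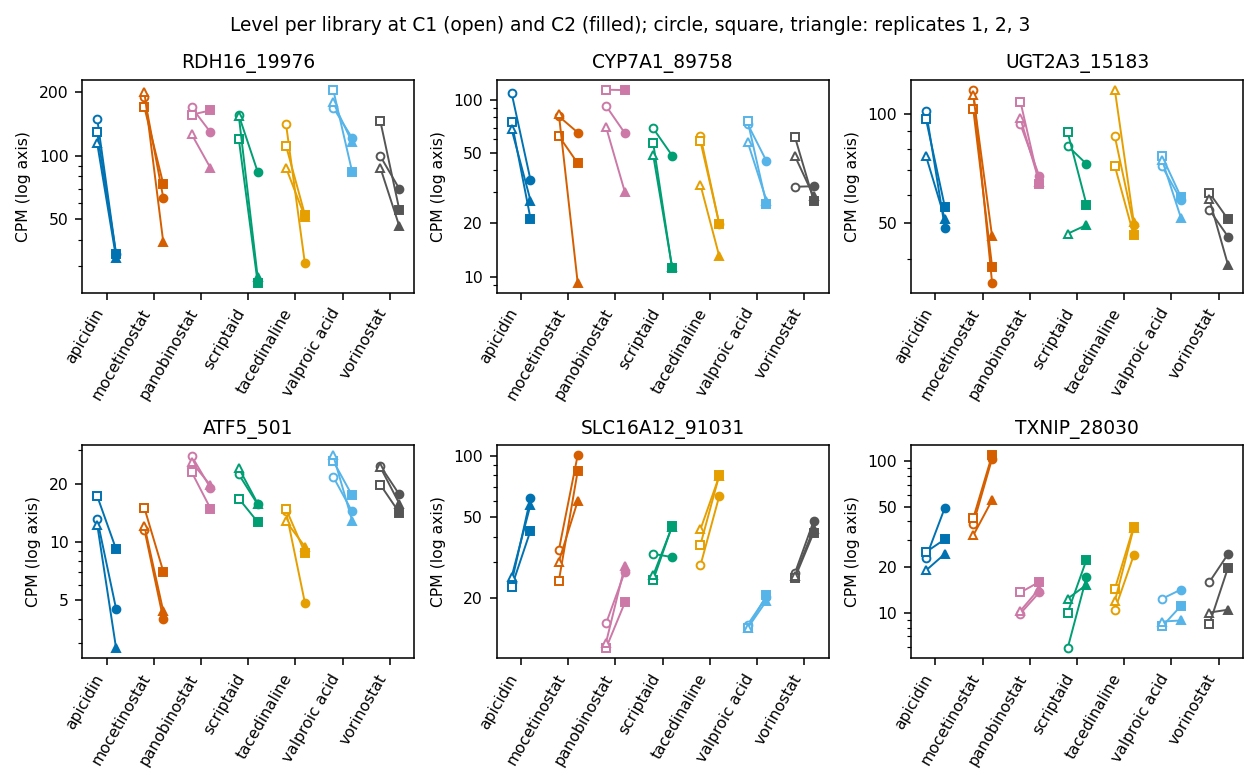
CPM (log axis) in each library for 6 probes by chemical, with C1 as open and C2 as filled symbols joined within a pair and the shape giving the replicate. RDH16, CYP7A1, UGT2A3 and ATF5 lie lower at C2 in at least 20 of 21 pairs and SLC16A12 and TXNIP higher in at least 20, ATF5 and TXNIP in all 21.

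The promoters of 4 of these genes are shown as examples from each direction. RDH16 and SLC16A12 had the smallest p among the falling and the rising probes, ATF5 was separate in all 7 chemicals and TXNIP was higher in all 21 pairs. They are the 250 bases before the RefSeq start of each gene (GRCh38.p14), read 5′ to 3′ on the strand of the gene.
RDH16 (chr12:56957609-56957858, minus strand): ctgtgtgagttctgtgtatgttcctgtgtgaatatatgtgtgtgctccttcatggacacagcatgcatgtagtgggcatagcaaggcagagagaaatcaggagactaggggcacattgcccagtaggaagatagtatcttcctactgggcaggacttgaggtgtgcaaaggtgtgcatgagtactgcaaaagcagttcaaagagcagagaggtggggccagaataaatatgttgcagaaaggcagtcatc
ATF5 (chr19:49928656-49928905, plus strand): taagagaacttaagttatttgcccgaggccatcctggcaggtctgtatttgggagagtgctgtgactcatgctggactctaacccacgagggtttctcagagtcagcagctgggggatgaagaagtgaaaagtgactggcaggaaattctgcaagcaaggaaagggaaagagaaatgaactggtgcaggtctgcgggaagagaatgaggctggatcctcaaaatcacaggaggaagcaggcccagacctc
SLC16A12 (chr10:89535595-89535844, minus strand): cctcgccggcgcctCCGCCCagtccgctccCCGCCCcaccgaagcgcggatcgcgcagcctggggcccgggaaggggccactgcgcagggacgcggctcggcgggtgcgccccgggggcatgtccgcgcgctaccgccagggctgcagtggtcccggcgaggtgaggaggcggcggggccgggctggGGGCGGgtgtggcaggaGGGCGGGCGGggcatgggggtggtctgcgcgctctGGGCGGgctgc
TXNIP (chr1:145996580-145996829, minus strand): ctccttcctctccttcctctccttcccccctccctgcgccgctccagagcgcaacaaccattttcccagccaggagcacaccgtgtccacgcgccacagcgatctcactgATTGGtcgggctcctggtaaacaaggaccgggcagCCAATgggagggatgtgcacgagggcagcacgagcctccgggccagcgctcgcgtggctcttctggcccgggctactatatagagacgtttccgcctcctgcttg
Capitals mark matches, on either strand, to 6 short motifs: the TATA box TATAAA, the GC box GGGCGG, the CCAAT box CCAAT, the E-box CACGTG, an HNF1 site motif and the HNF4 letters CAAAGTCC. SLC16A12 held 6 matches to the GC box, some overlapping, and 81.2% of its bases were G or C. TXNIP held 2 matches to CCAAT, with 63.6% G or C. RDH16 and ATF5, with 47.6% and 50.8% G or C, held no match in this window. Over all 27305 RefSeq promoters of this length, 42.3% held the GC box, 33% CCAAT, 11.1% TATAAA, 6.49% CACGTG, 0.271% the HNF1 motif and 1.02% the HNF4 letters, and the median share of G and C was 58%. Of the 30 genes named by the rule 20 matched the promoter table, so no share over them is given.

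Other rising probes belonged to several kinds of gene. CNTN1 was read by 2 probes, with changes of 1.11 ± 0.14 (adjusted p = 2.3e-06) and 1.27 (adjusted p = 0.000237). The first had 3.05 to 15.9 CPM at C1 (median 10.0) and 5.98 to 31.8 CPM at C2 (median 22.2). FABP4, the fatty acid-binding protein of fat cells and macrophages, had 0.461 to 5.55 CPM at C1 (median 3.18) and 1.499 to 23.7 CPM at C2 (median 6.78). Its change was 1.29 ± 0.22 (adjusted p = 0.000388), from 0.10 in vorinostat to 2.69 in mocetinostat. S100A8 and S100A9, which together form calprotectin, changed by 0.71 ± 0.10 (adjusted p = 1.19e-05) and 0.82 ± 0.12 (adjusted p = 2.98e-05). S100A9 had 30.2 to 175 CPM at C1 (median 66.9) and 24.4 to 625 CPM at C2 (median 108), and its estimate in valproic acid was -0.19.

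CYP1A1, a P450 induced through the aryl hydrocarbon receptor, changed by 1.09 ± 0.20 (adjusted p = 0.000669), and by 0.74 without the 3 pairs. CPA4, a carboxypeptidase first described as induced by deacetylase inhibition, changed by 0.83 ± 0.15 (adjusted p = 0.00046). GDF11, a ligand of the transforming growth factor β family, changed by 0.88 ± 0.14 (adjusted p = 0.000162), and PARM1, a mucin-like membrane protein, by 0.78 ± 0.14 (adjusted p = 0.000576). For CYP1A1, CPA4, GDF11 and PARM1 the estimate was highest in mocetinostat (2.26, 1.93, 1.78 and 1.67). The lowest were 0.14 for CYP1A1 in valproic acid, 0.38 for CPA4 in panobinostat, and 0.13 for GDF11 and 0.29 for PARM1 in scriptaid. C15orf48 changed by 1.15 ± 0.26 (adjusted p = 0.00601), and without mocetinostat the value was 0.70 (adjusted p = 0.12) and without tacedinaline 1.00 (adjusted p = 0.0612). Its estimates were positive in 6 chemicals and -0.61 in panobinostat. PPM1J, a protein phosphatase, changed by 0.89 ± 0.19 (adjusted p = 0.00469), and without apicidin or mocetinostat the adjusted p was 0.0523 or 0.0645. Its estimates were positive in 6 chemicals, but in vorinostat its C2 libraries lay below its C1 libraries (-0.60). On plate E alone its adjusted p was 0.814. CAPSL (0.86), RNASEK (0.52) and PRG4, the lubricating proteoglycan lubricin (0.48), completed the set.

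Genes of liver function were called falling at the highest shares among the gene lists with at least 8 tested features. This leaves aside a list of shared trends chosen on these libraries. The other lists were also set with earlier results of these data known, so their shares are a description. The share was 18 of 43 features (41.9%) for drug and bile acid metabolism and 11 of 27 (40.7%) for secreted plasma proteins, beside 1.77% of all probes. The medians of these lists were -0.372 and -0.277 on the log2 scale, beside -0.00585 over all probes, and -0.268 and -0.278 without the 3 pairs. In lysates of whole cultures, fewer cells of a type and less RNA per cell cannot be told apart. Without the 3 pairs 20 of the 43 and 18 of the 27 features were called falling. Summed hepatocyte markers, of which ALB was the largest, were lower at C2 in 14 of 21 pairs, and their part in these results was not tested. Of the 6 markers ALB (-0.23, adjusted p = 0.0413) and FGB (-0.26, adjusted p = 0.0485) fell, while APOA2 had 0.30 (adjusted p = 0.114), TTR 0.18 (adjusted p = 0.233), APOA1 0.01 (adjusted p = 0.944) and SERPINA1 -0.12 (adjusted p = 0.372).

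In drug and bile acid metabolism, SLC22A7, an organic anion transporter, changed by -0.78 (adjusted p = 0.00044) and FABP1, the liver fatty acid-binding protein, by -0.53 (adjusted p = 0.00046). CYP1A2, a P450 of caffeine metabolism, rose (1.47 ± 0.34, adjusted p = 0.00802), from a median of 1.99 to 2.39 CPM. It was higher in 15 of 21 pairs, with 0.95 without the 3 pairs (0.0244) and an adjusted p of 0.0643 without scriptaid. Among plasma proteins, ITIH2 and ITIH1, inter-α-trypsin inhibitor heavy chains, changed by -0.52 (adjusted p = 4.45e-05) and -0.58 (adjusted p = 0.00244). AHSG, fetuin-A, changed by -0.63 (adjusted p = 0.0036), and ALB, albumin, by -0.23 (adjusted p = 0.0413). Of 22 features of amino acid breakdown and the urea cycle 4 fell (18.2%, median -0.178), beside 1.77% of all probes. They were 2 probes of DPYS, an enzyme of pyrimidine breakdown (-0.48 and -0.54), AGXT, which detoxifies glyoxylate (-0.33), and CPS1, the entry enzyme of the urea cycle (-0.44). When the 7 chemicals were left out in turn, AGXT was not called in 3 of 7 fits (highest adjusted p = 0.103, without apicidin) and CPS1 in 4 of 7 (highest adjusted p = 0.153, without valproic acid).

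Of 24 features of hepatocyte transcription factors 2 fell (8.33%, median -0.103), beside 1.77% of all probes. They were ATF5 and PROX1 (-0.29, adjusted p = 0.0341, and 0.0827 without the 3 pairs). HNF4A, a regulator of hepatocyte genes, had a change of -0.24 (adjusted p = 0.445) and was named after its values were seen. Of 26 features of cholesterol synthesis and uptake 0 were called by edgeR and 5 had an unadjusted p under 0.05, with a median of -0.0648, and 1 fell without the 3 pairs. In lipid droplets and lipogenesis, of 22 features FABP4 rose and CIDEB, a lipid droplet protein of hepatocytes, fell (-0.58, adjusted p = 0.00493). Each was 4.55% of the list, beside 1.69% of all probes that rose and 1.77% that fell.

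**Figure D4:**
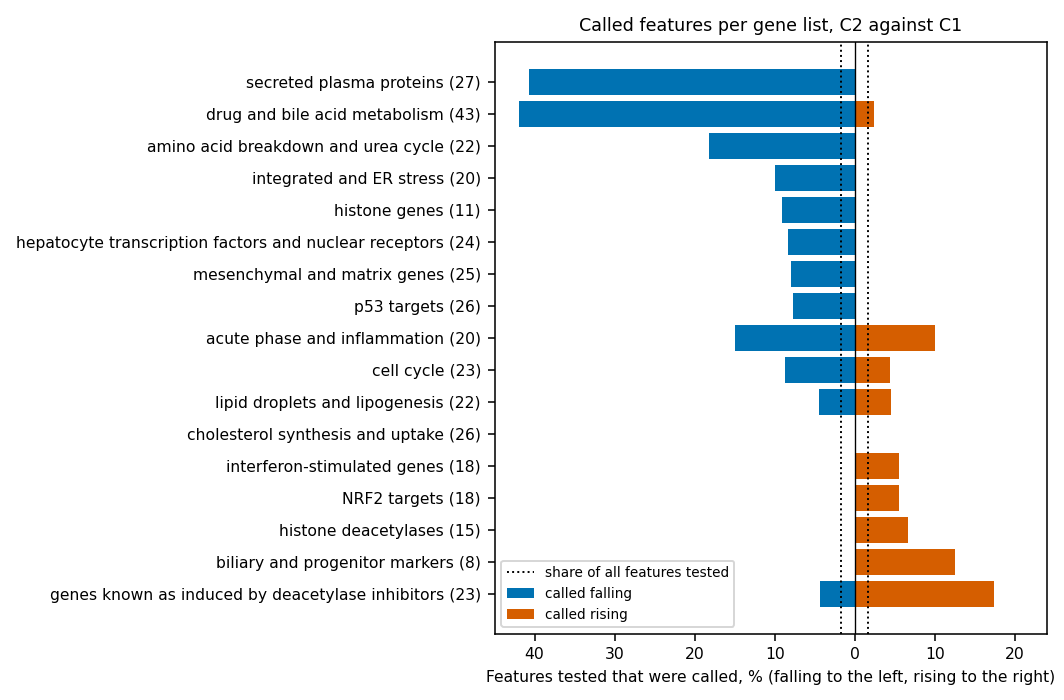
Share of tested features called falling (to the left) and rising (to the right) in each gene list with at least 8 tested features, whose number stands in parentheses. Dotted lines mark the shares over all probes, 1.77% falling and 1.69% rising, and drug and bile acid metabolism and secreted plasma proteins reach 41.9% and 40.7% falling.

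Among genes known as induced by deacetylase inhibitors, 4 of 23 features rose (17.4%, beside 1.69% of all probes) and 1 fell (4.35%, beside 1.77%), with a median of 0.115. Those that rose were TXNIP, CPA4, MT2A, a metallothionein (0.41, adjusted p = 0.0169), and HBG1, a fetal globin chain. HBG1 went from a median of 1.61 to 4.31 CPM, higher at C2 in 20 pairs (1.62 ± 0.27, adjusted p = 0.000184), and its near-identical copy HBG2 may share its counts. GSN, the actin-binding protein gelsolin, fell (-0.26, adjusted p = 0.00506). MT2A was also the 1 of 4 metallothionein features called rising, while all 4 had positive estimates (median 0.405, and 0.292 without the 3 pairs). Of 15 features of the deacetylases themselves HDAC2 rose (0.19, adjusted p = 0.0325, and 0.0639 without the 3 pairs). Of 11 histone features 1 probe of HIST1H2BJ fell (-0.36), while the second had 0.07 (adjusted p = 0.733).

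In the cell cycle list of 23 features MCM3, a helicase subunit of DNA replication, rose (0.33, adjusted p = 0.00296), while the mitotic genes CCNB1 (-0.62, adjusted p = 0.0214) and AURKA (-0.55, adjusted p = 0.0338, and 0.0894 without the 3 pairs) fell. In the 20 features of acute phase and inflammation S100A8 and S100A9 rose. CRP, C-reactive protein (-0.77, adjusted p = 0.00739), CXCL2, a neutrophil chemokine (-0.24, adjusted p = 0.0164), and SAA4, a serum amyloid A protein (-0.77, adjusted p = 0.047), fell, and 8 features of the list fell without the 3 pairs. The stress genes DDIT3 (-0.42) and HSPA5 (-0.22) fell as 2 of 20 features. TP53I3 (-0.28) and TP53INP1 (-0.32, with an adjusted p of 0.0703 without the 3 pairs) fell as 2 of 26 features of p53 targets. SRXN1, an antioxidant enzyme under NRF2, rose (0.31, adjusted p = 0.00202) as 1 of 18 features, and IFI6 (0.27, adjusted p = 0.0171) as 1 of 18 interferon-stimulated features. Over all probes tested 1.69% rose and 1.77% fell. Lists with 1 or 2 calls in a direction are described gene by gene only.

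Not all of these calls held in the 7 fits that left out 1 chemical each, while the sign was the same in every fit. The fits reused libraries on which the calls were made, so the shared sign is a description. SAA4 was not called in 6 of the 7 (highest adjusted p = 0.169) and TP53INP1 in 6 (highest 0.179). PROX1, HDAC2, AURKA and HSPA5 were not called in 5 each (highest 0.167, 0.196, 0.118 and 0.136) and TP53I3 in 4 (highest 0.159). CCNB1 and MT2A were lost in 3 (highest 0.111 and 0.104), and CXCL2 and IFI6 in 2 (highest 0.113 and 0.147). CRP (0.0706), HIST1H2BJ (0.0991), DDIT3 (0.0575), CIDEB (0.0731) and CCDC80 (0.0557) were not called without apicidin.

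Of 8 biliary and progenitor features SPP1, osteopontin, rose (0.76 ± 0.16, adjusted p = 0.00344), from a median of 5.92 to 12.9 CPM. The 2 probes of KRT19, a keratin of bile duct cells, had 0.56 (adjusted p = 0.0648) and -0.04 (adjusted p = 0.855). Of 25 mesenchymal and matrix features the collagen COL3A1 (-0.73, adjusted p = 0.0048) and CCDC80 (-0.49, adjusted p = 0.00469) fell, with a list median of 0.00502. The shares over all probes tested were 1.69% rising and 1.77% falling. Of 3 tested blood, immune and endothelial features edgeR called 0, and 0 had an unadjusted p under 0.05. The part of these cells in the other results was not tested. Of 12 features from an earlier list of trends shared by the 7 chemicals, 4 rose and 7 fell. That list was chosen on these same libraries and is not independent evidence. Its remaining feature, CCK, had 0.61 (adjusted p = 0.441).

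The size of the step is given side by side for the 7 chemicals, whose doses differ. The median estimate of the 240 falling probes was -0.568 in apicidin, -0.806 in mocetinostat, -0.222 in panobinostat, -0.398 in scriptaid, -0.395 in tacedinaline, -0.358 in valproic acid and -0.223 in vorinostat. For the 230 rising probes it was 0.408, 0.71, 0.274, 0.111, 0.346, 0.271 and 0.24 in the same order. These probes were called on the same libraries, so the values are a description. When the step was estimated for each chemical, mocetinostat, which holds 2 of the libraries that stood apart, had 1323 probes rising and 1069 falling. The other 6 had at most 8 rising and 27 falling. In scriptaid 161 of the 230 rising probes had a positive estimate and 218 of the 240 falling probes a negative one.

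A test of whether the step differed between the 7 chemicals called 33 of 13592 probes (0.243%), and 115 of 14462 (0.795%) without the 3 pairs, of which 22 were shared. CYP3A4, a major drug-metabolising P450, was among them (probe CYP3A4_88797, adjusted p = 0.000929, and 0.000432 without the 3 pairs), named after its values were seen. Its estimates were -2.41 in mocetinostat, -1.14 in tacedinaline and 0.33 in scriptaid. Between the 3 batches and between the plates edgeR called 0 probes, with 618 and 1379 at an unadjusted p under 0.05. Without the 3 pairs 1 probe (0.00691%) differed between plates. Each chemical was on 1 plate, so plate and chemical cannot be told apart.

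The called probes were then read in C5 against C3 of the same chemicals, which shares no library with C2 against C1. This step used 41 libraries, and its size differed between chemicals. It went from 44.46 to 94.5 µM in scriptaid and from 0.01321 to 0.084 µM in panobinostat, for example. In C5 against C3, 2912 of 14762 probes rose (19.7%) and 3259 fell (22.1%). Without a mocetinostat pair whose C3 library correlated below 0.9 with its group, the counts were 2992 and 3255. Of the 239 tested probes that had fallen at C2, 205 fell (85.8%), with a median of -1.36 beside -0.000384 over all probes. Of the 230 that had risen, 105 rose (45.7%) and 42 fell (18.3%), with a median of 0.214. Of the 51 that rose at least 1.5-fold at C2, 25 rose and 2 fell, and of the 61 that fell at least 1.5-fold, 48 fell and 1 rose.

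Individual genes differed in C5 against C3. AFM had -3.04 (adjusted p = 3.16e-07) and CYP7A1 -2.11 (adjusted p = 1.92e-05), while RDH16 had -0.76 (adjusted p = 0.0975) and ATF5 -0.37 (adjusted p = 0.362). The mean level of RDH16 over the 7 chemicals was 7.24 log2 CPM at C1, 5.97 at C2, 3.40 at C3, 2.66 at C4 and 2.68 at C5. CPA4 rose further by 2.18 (adjusted p = 1.01e-12) and FABP4 by 1.28 (adjusted p = 3.29e-07). SLC16A12 had -0.45 (adjusted p = 0.106), with mean levels of 4.64, 5.53, 6.34, 6.33 and 5.94 log2 CPM from C1 to C5. CYP1A2 (-0.95, adjusted p = 0.0106) and MCM3 (-0.39, adjusted p = 0.00586), which had risen at C2, fell from C3 to C5.

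**Figure D5:**
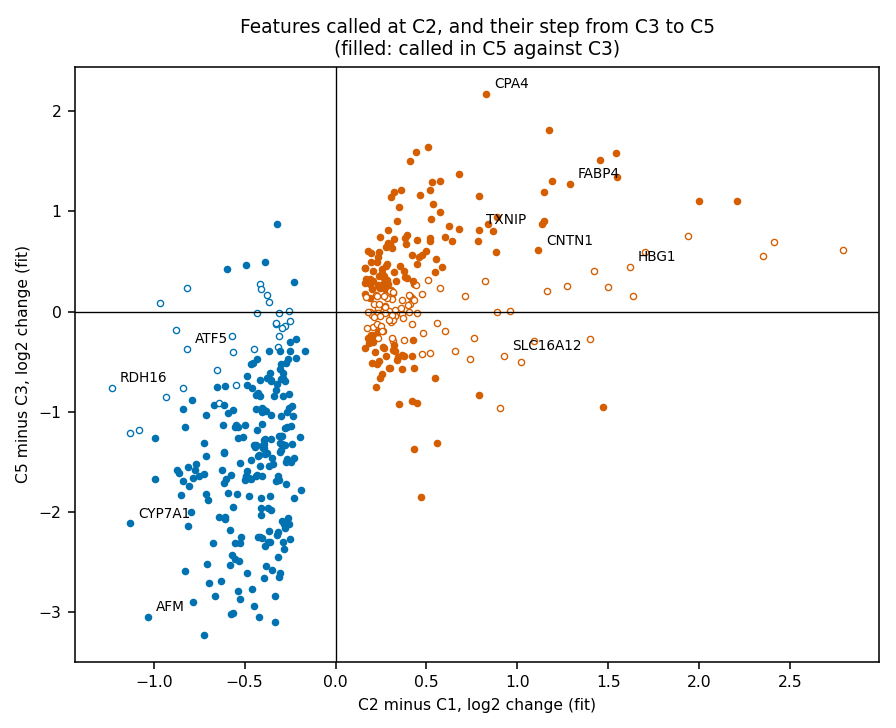
Log2 change from C3 to C5 (vertical axis) against log2 change from C1 to C2 (horizontal axis) for the probes called at C2, with filled points for those also called in C5 against C3. Of the tested probes that fell at C2, 205 were called falling again, while of those that rose 105 were called rising and 42 falling.

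Trichostatin A, a hydroxamic acid left out of the pool, was tested at the same step in 3 against 3 other libraries. There edgeR and DESeq2 called 0 probes in either direction, and edgeR gave 151 rising and 195 falling at an unadjusted p under 0.05. Of the 240 probes that fell in the pool 200 were higher at C2 of trichostatin A, with a median of 0.51 beside 0.0116 over all probes. Of the 204 tested probes that rose in the pool 129 were lower and 75 higher, with a median of -0.0882. Its C1 library of replicate 3 had a median Spearman correlation of 0.863 with the 42 libraries, against at least 0.951 for the other 5. Without replicate 3, 138 of the 240 were higher and 102 lower, with a median of 0.0595, while of the rising probes 116 were lower and 89 higher, with a median of -0.0371, and 3 of 11714 probes were called falling (0.0256%). RDH16 had 1.15 with all replicates and 0.13 without replicate 3.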

How the data were processed

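Differentiated HepaRG lysates were profiled by TempO-Seq, and the authors deposited raw counts per probe (22069 rows, 118 libraries), used as deposited. One row without values in many libraries was left out, and 0 columns belonged to no sample. The submitters' processing notes name bcl2fastq 2.20.422, fastp 0.23.2, STAR 2.7.10b and DESeq2 1.38.0. Their roles, the probe annotation and the genome build are not given in the sources used here. Groups came from the labels.

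Probes passing filterByExpr were scaled by TMM and tested with edgeR 4.0.16 (R 4.3.3) quasi-likelihood F tests with chemical, batch and concentration as terms. P-values were adjusted by Benjamini-Hochberg over all probes tested, and called means an adjusted p under 0.05. Differences between chemicals, batches or plates were tested as interactions. DESeq2 1.42.0 was an alternative. The test was checked on simulated counts with 99 probes changed 1.5-fold and 99 changed 2-fold. It called 61.6% and 84.8% of them in the right direction, with 7 false calls among 13322 probes. The simulation held no differences between chemicals, batches or plate positions and no libraries that stood apart, so it does not cover these.

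Named probes were called, had a mean of at least 5 CPM and the called sign in at least 18 pairs. The 12 largest changes and the next 3 by p were taken per direction, 1 probe per gene, with up to 4 called examples per direction from each gene list. Some probes that met this rule are not reported here. The members and gene lists were chosen with earlier results of these data known.

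The labels give replicate numbers as HepaRG batches, which pair the libraries. Deviations from group means correlated at a median of 0.048 in the same batch (273 library pairs) and -0.0228 between batches (546). Such deviations cancel out within a group, so the value between batches largely follows from the value in the same batch. P-values measure the spread between these libraries. Total counts of 1243102 to 5250260 set the precision.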

Additional observations from a re-analysis of the deposited data

Results flagged for a closer look

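The step from C1 to C2 differed between the 7 chemicals, by a test of the chemical-by-concentration interaction, for 33 of 13592 probes. Without the 3 pairs with a library that stood apart the count was 115, with 22 probes in both. In 22 of the 33 mocetinostat lay farthest from the median of the chemicals, and 14 of the 33 were also called in the pooled comparison.

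Of the probes taken by the rule or as list examples 4 were among the 33, and so were CYP3A4 and TRIM22 (adjusted p = 0.0369), named after their values were seen. S100A9 had an adjusted p of 0.0317 for the difference between chemicals, and 0.000362 without the 3 pairs, with an estimate of -0.19 in valproic acid beside 1.74 in mocetinostat. ITIH2 had 0.0222 and 0.00685, from -1.05 in tacedinaline to 0.04 in panobinostat. AFM had an adjusted p of 0.023 and ABCA6 of 0.0428, both led by mocetinostat (-2.85 and -2.51). Without the 3 pairs their adjusted p was 0.114 and 0.39.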

How the results depend on the processing

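The 65 called features taken by the rule or as list examples kept their direction in each of 21 alternatives, and 2 to 65 of them stayed called. Each alternative reused all or part of the libraries on which they were called, so the kept direction is a description. The lowest counts still called were 2 in pairs outside the outer columns, 25 with trichostatin A, 25 on plate E alone and 32 without replicate 3. Next came 36 on plate H alone, 38 without replicate 2 and 42 without apicidin. With 230 probes rising and 240 falling as the reference, DESeq2 gave 375 rising. With each pair as a replicate block 119 rose and 165 fell, and 56 of the 65 stayed called. Without a batch block the counts were 217 and 222. Leaving out 1 batch or 1 chemical gave 36 to 315 rising and 62 to 223 falling. By batch these were 47 and 95 without replicate 1, 36 and 62 without replicate 2, and 49 and 63 without replicate 3. Without apicidin they were 60 and 84, without tacedinaline 111 and 159, and without valproic acid 139 rose. Without tacedinaline and mocetinostat 78 and 144 were called, with trichostatin A 58 and 40, on plate H alone 75 and 88, on plate E alone 47 and 66, and in pairs outside the outer columns 0 and 3. With a fold minimum of 1.5 the counts were 51 and 61, and at an adjusted p under 0.01 they were 63 and 100. Leaving out the 3 pairs, an alternative chosen after seeing the data, gave 345 and 385.

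The 33 probes that differed between chemicals became 907 with no filter on low counts, 9 with the pair as a replicate block, 0 to 2328 when a batch was left out (2328 without replicate 3) and 115 without the 3 pairs. Between batches the 0 became 3 with no filter, and between plates 1 without the 3 pairs. For trichostatin A leaving out a replicate gave 0 to 3 falling. C5 against C3 stayed within 1.5 times its counts in every alternative run. The causes were not tested.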
